A study of Homo sapiens with 12 samples.

Results

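The comparison described here is that of MLLT10/AF10-depleted with si-control HEK293T cells, both kept in Wnt3A medium for 9 h. HEK293T is a human embryonic kidney line that carries the SV40 large T antigen and whose Wnt pathway is silent until a ligand is added. All cells had been transfected with 15 nM of an siRNA pool and were collected after 72 h. The depleted cells received a pool against MLLT10/AF10 and the others a non-targeting pool. Cells in control conditioned medium with the non-targeting pool, and cells in Wnt3A with pools against DOT1L, BRG1, or p300, are used only to show where the 2 arrays lie among the 6 HEK293T arrays. Each condition is 1 two-color Agilent array of the 12 in the series, with the sample labeled in Cy3 and universal human reference RNA in Cy5. Of the 43376 features that are not control spots, 28282 were well-measured on both arrays, which means that no outlier flag was set and that at least 1 of the channels read more than 2 times its local background. A level is the log2 ratio of sample to reference, and a change is the level in MLLT10/AF10-depleted cells minus that in si-control cells.

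MLLT10/AF10 is a PHD finger protein that binds DOT1L, the methyltransferase that modifies a lysine in the globular core of histone H3. Methylation of this residue lies over the bodies of transcribed genes and accompanies elongation by RNA polymerase II. Wnt ligands stabilize β-catenin, which enters the nucleus and joins TCF/LEF factors at genes such as AXIN2, an inhibitor of the pathway that feeds back on it. The comparison asks which transcripts depend on MLLT10/AF10 while the pathway is on.

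With 1 replicate per condition, the difference between conditions could not be tested, and p-values are left out. The ± value after a change is the error that the scanner's program gives for a ratio, combined over both arrays, with a median of 0.31 on the log2 scale over the features tested. It covers measurement on the arrays and not the spread between cultures. Spots of the same probe agreed more closely, with a median SD of 0.04 on the si-control array and 0.03 on the MLLT10/AF10 array over 238 probes that are printed in 10 spots and had at least 5 of them tested. The median sample signal was 3.15 times the local background on the si-control array and 2.64 times on the MLLT10/AF10 array, and 0 features were saturated. The MLLT10/AF10 array shared its slide with the DOT1L array and with the si-control array in control medium, while the slide of the si-control Wnt3A array held 0 of the other HEK293T arrays. Slide and condition can therefore not be told apart in this comparison.

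The labeled cell line was compared with marker genes. Of 16 kidney lineage markers 14 were measured, and 12 of them had a probe whose Cy3 signal was well above background on both arrays. EYA1, a transcriptional coactivator of the early kidney, was at a level of 0.83 in si-control cells, and SALL1, a zinc finger factor of kidney progenitors, was at 0.69. Of the 14 measured kidney genes 8 were below the reference, down to -5.01 for CDH6 and with PAX8, a regulator of kidney development, at -2.33. CDH16 and CDH6, cadherins of kidney tubules, were not well above background. Neuronal markers ranged from 4.96 for NEFM, an intermediate filament, to -4.19 for NEFH, another subunit of it. Of 9 measured fibroblast markers 8 were below the reference, down to -7.67 for LUM, and TWIST1 was above it at 0.69.

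MLLT10 itself was measured by 1 probe. Its level was 0.40 in si-control cells and -1.35 in MLLT10/AF10-depleted cells, a change of -1.76 ± 0.32 (program error), or 3.38-fold lower. On the other HEK293T arrays its level was 0.72 in control medium, 0.51 after DOT1L, 0.43 after BRG1, and 0.38 after p300 depletion, so the MLLT10/AF10 array was alone below 0. In Ls174T colorectal cancer cells, on other arrays, the same probe went from -0.34 to -1.76. The transcripts targeted by the other pools stayed within 1.5-fold. DOT1L, the enzyme that MLLT10/AF10 binds, changed by -0.07, 0.02, and 0.34 on its 3 probes. SMARCA4, which encodes BRG1, the ATPase of SWI/SNF remodeling complexes, changed by -0.01, 0.02, and 0.07. EP300, which encodes the acetyltransferase p300, changed by -0.23 and 0.52 on its 2 probes. CTNNB1, which encodes β-catenin, changed by -0.46 and -0.42. On the CTNNB1 probe printed in 10 spots, the si-control spots lay between 0.31 and 0.38 and the MLLT10/AF10 spots between -0.17 and -0.07, which do not overlap but come from 1 culture each.

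Over all features tested, 1145 were more than 1.5-fold lower after MLLT10/AF10 depletion (4.05%) and 956 were more than 1.5-fold higher (3.38%). The median change was -0.00068. Taking each of 13530 named genes by its most changed probe, 585 were lower (4.32%) and 582 higher (4.3%), and these percentages are the background for the counts in gene groups given below. Beyond 2-fold, 493 features were lower and 213 higher. The lower features were mostly dim ones. When features were split into 5 equal classes by sample signal, 17.2% were lower and 7.44% higher in the dimmest class, whereas in the brightest class 0.301% were lower and 1.27% higher. In the Cy3 channel that holds the sample, 46.0% of the lower features were well above background on both arrays, against 76.7% of the higher features and 94.7% of all features tested. When both channels had to exceed 2 times the background, 190 features were lower and 496 higher of 23284, so that the balance of lower and higher calls turned over. It was 166 lower and 296 higher when background was corrected by normexp with loess normalization, and 3825 lower and 1066 higher in the sample channel alone.

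**Figure D1:**
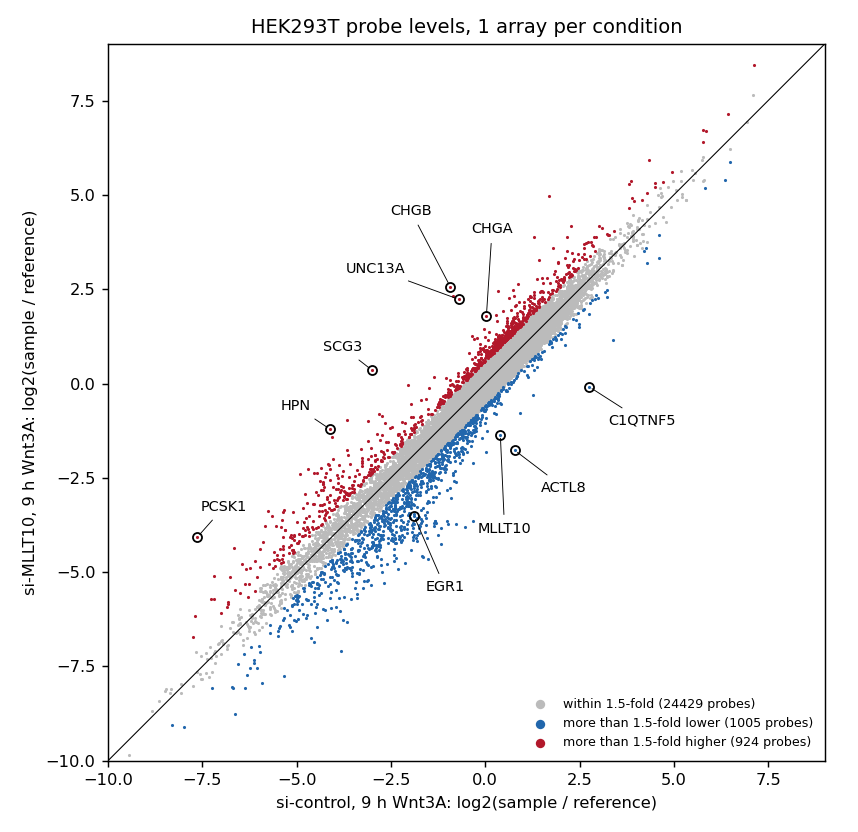
Levels of all 26358 probes tested, with spots of a probe averaged, as log2 of sample over reference in si-control cells (horizontal axis) and MLLT10/AF10-depleted cells (vertical axis). The line marks equal levels, and the circled genes lie far from it, CHGB and SCG3 above and C1QTNF5 and ACTL8 below. Lower probes crowd at low levels.

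The lower and the higher features differed in which array stood apart. Among the lower features, the median level was -1.99 in si-control cells with Wnt3A and -3.20 in MLLT10/AF10-depleted cells. On the remaining arrays it was -2.77 in control medium, -2.82 after DOT1L, -3.15 after BRG1, and -3.26 after p300 depletion. The si-control Wnt3A array was the highest of 6 for 73.8% of the lower features, and the MLLT10/AF10 array was the lowest for 26.2%. For the higher features, the MLLT10/AF10 array was the highest of 6 for 56.7% and the si-control Wnt3A array the lowest for 55.4%. Over all features these shares were 15.6% and 12.9% for the former pair and 13.7% and 14.9% for the latter. Since the calls were made on 2 of these arrays, the shares describe the calls and test nothing. With the mean of the DOT1L, BRG1, and p300 arrays in place of the si-control Wnt3A array, 464 features were lower and 919 higher of 27067. Against the DOT1L array on the same slide alone, 478 were lower and 559 higher of 28396. These arrays are depletions too, and DOT1L is the partner of MLLT10/AF10. A change that the depletions have in common cannot be seen in such comparisons, here and below.

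**Figure D2:**
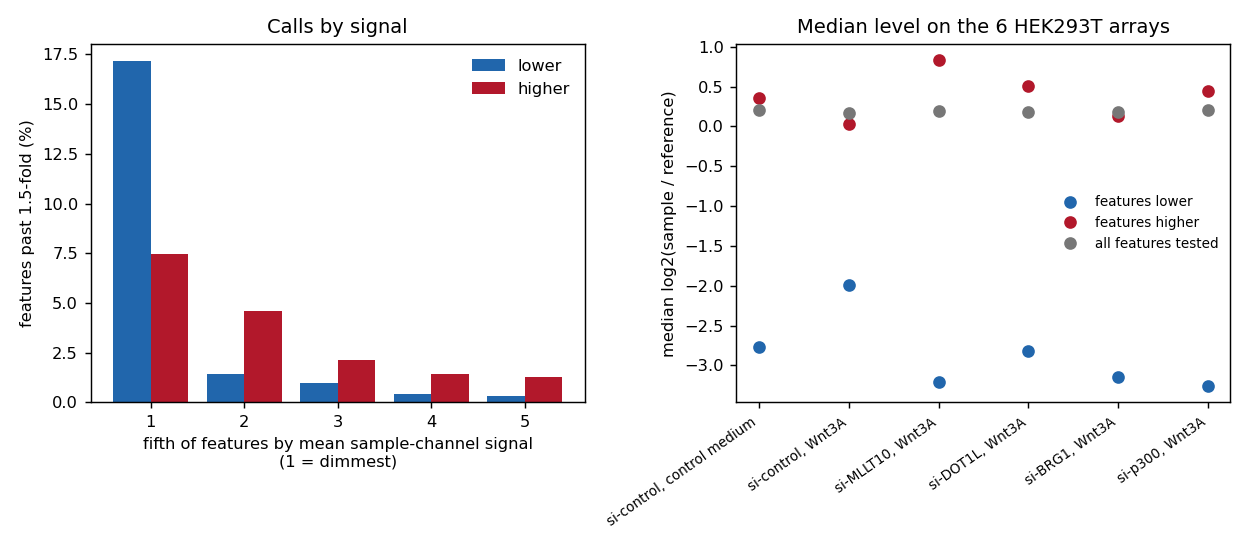
Left, percentage of features more than 1.5-fold lower or higher in each of 5 equal classes of mean sample-channel signal, from the dimmest to the brightest. Right, median level (log2 of sample over reference) of the lower, the higher, and all tested features on each of the 6 HEK293T arrays, where the lower features reach -1.99 on the si-control Wnt3A array and lie at or below -2.77 on the others.

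The largest increases were those of CHGB and SCG3, which encode proteins of secretory granules. Among probes well above background on both arrays, and past 1.5-fold also in the sample channel alone, the 12 genes with the largest increases were led by CHGB, SCG3, UNC13A, HPN, SOAT2, CELF3, CHGA, ITGA3, GDAP1L1, CACNA1B, and HES5. The MLLT10/AF10 array was the highest of the 6 HEK293T arrays for all 12, and for 56.7% of all higher features. For 11 of the 12, all but HES5, it exceeded the highest of the other 4 arrays by more than 1.5-fold. The genes were chosen by the rise of this array over si-control, so these ranks partly follow from the choice and test nothing.

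CHGB encodes chromogranin B, an acidic protein of the dense-core granules in which endocrine and neuronal cells store hormones and peptides. The level of its most changed probe was -0.92 in si-control and 2.56 in MLLT10/AF10-depleted cells, a change of 3.48 ± 0.41. It was -0.17 in control medium, -0.00 after DOT1L, 1.22 after BRG1, and 0.73 after p300 depletion. The second CHGB probe went from -0.85 to 2.32, with the other arrays between -0.64 and 0.77. Both probes thus placed the MLLT10/AF10 array above all others, and the si-control Wnt3A array at the bottom.

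SCG3 encodes secretogranin III, which binds chromogranin A and helps to sort it to granules. Its level was -3.01 in si-control and 0.36 in MLLT10/AF10-depleted cells, a change of 3.36 ± 0.40, and its second probe changed by 1.42 ± 0.33. On the other arrays the first probe read -2.62 in control medium, -3.18 after DOT1L, -1.89 after BRG1, and -2.53 after p300 depletion. The MLLT10/AF10 array was thus alone above the reference. CHGA, which encodes chromogranin A, went from a level of 0.03 to 1.78, a change of 1.75 ± 0.33, with the other arrays between 0.22 and 0.58.

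Further granule genes were looked up after these values had been seen. PCSK1, the proprotein convertase that cuts prohormones inside granules, was by 1 probe well above background on the MLLT10/AF10 but not on the si-control Wnt3A array, and was at least 3.67-fold higher. With normexp and loess this probe of PCSK1 changed by 0.73. Its other probe changed by 0.86 ± 0.55. SCG2, another granin, changed by 1.15 ± 0.68 and was not well above background. The remaining members stayed within 1.5-fold. CPE, the carboxypeptidase that trims prohormones, changed by -0.03, and PAM, the enzyme that amidates peptides, by -0.16 and -0.02. PCSK1N, an inhibitor of the convertase, changed by 0.12 and 0.22, and SCG5, a chaperone of the related convertase PCSK2, by -0.17.

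UNC13A, a protein that primes synaptic vesicles for release, went from a level of -0.69 to 2.23, a change of 2.92 ± 0.39. The p300 array was high as well at 1.63, while the rest lay between -1.55 and -0.42. CACNA1B, the pore of the N-type calcium channel that triggers transmitter release, went from 0.28 to 1.81, with the other arrays between 0.24 and 0.74. A second CACNA1B probe changed by -0.06, so the probes of this gene disagreed. CELF3, an RNA-binding protein of neurons, went from 2.29 to 4.17 with the others between 1.76 and 2.93.

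HPN, a serine protease of the cell surface, went from a level of -4.11 to -1.21 by 1 probe, a change of 2.90 ± 0.51, whereas its other probe changed by 0.17 ± 0.59. SOAT2, which esterifies cholesterol, went from -4.15 to -2.17 with the others between -5.68 and -4.85. ITGA3, the α3 subunit of integrin receptors for laminin, went from -2.67 to -1.05 with the others between -3.35 and -2.89. GDAP1L1 went from -0.35 to 1.26 with the others between -1.18 and -0.58. For HPN, SOAT2, ITGA3, and GDAP1L1 the si-control Wnt3A array lay above the other 4 and below the MLLT10/AF10 array. With normexp and loess the changes of HPN and SOAT2 were 0.71 and 0.70, and that of CHGB was 2.14. HES5, a transcriptional repressor that responds to Notch, went from 3.85 to 5.37, but read 5.30 after p300 and 4.83 after DOT1L depletion.

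**Figure D3:**
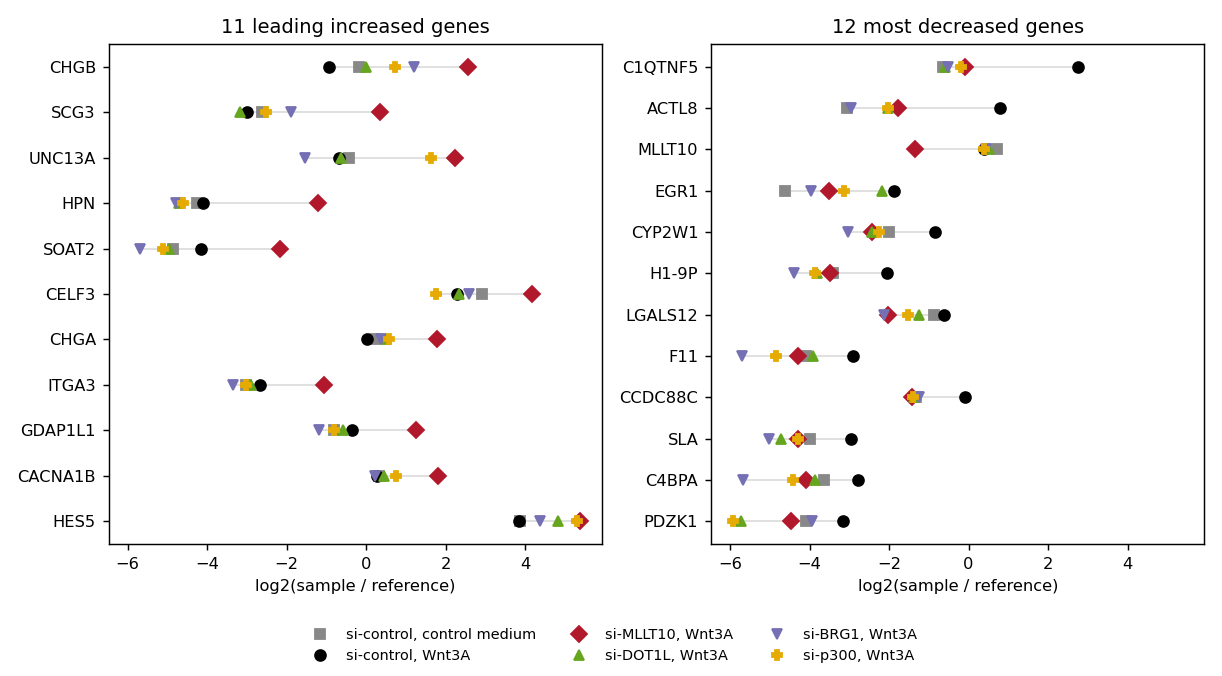
Levels (log2 of sample over reference) of the 11 leading increased genes and the 12 most decreased genes on the 6 HEK293T arrays, each symbol 1 array. For the increased genes the MLLT10/AF10 array (diamonds) is the highest of 6, and for 11 of the 12 decreased genes the si-control Wnt3A array (filled circles) is. The genes were chosen by the difference between these arrays, so the ranks partly follow from the choice.

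The neuronal marker list moved in the same direction. Of its 16 genes 9 were measured, 7 were higher and 0 lower, with a median change over the 11 probes of 0.64 against 0.00 over all named probes. CHGA was the largest, followed by NEFH, a neurofilament subunit, at 0.78 ± 0.58. SYT1, the calcium sensor of synaptic vesicles, was at 0.73 ± 0.36, and GAP43, a growth cone protein, at 0.70 ± 0.31. NEFM and NEFL, the medium and light neurofilament subunits, changed by 0.65 ± 0.77 and 0.64 ± 0.56, and the brighter probe of NEFL by 0.08 ± 0.68. TUBB3, a neuronal tubulin, changed by 0.60 on 1 probe and 0.03 on the other. The summed sample signal of the list was 50054.5 on the si-control and 84681.4 on the MLLT10/AF10 array. Of these sums the NEFM probe alone gave 27454.5 and 54541.1, so most of the rise lay in 1 probe. The part of the list in the increase of granule genes was not tested. With the DOT1L array of the same slide as the control, 4 of 9 were higher (CHGA, INA, NEFH, and TUBB3), against 2.3% of all genes, and with the mean of the DOT1L, BRG1, and p300 arrays 3 of 9 (CHGA, NEFH, and TUBB3), against 4.05%. In RNA from whole cultures, a change in the number of cells of a kind and a change in RNA per cell cannot be told apart.

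Several of these genes are textbook targets of REST, a zinc finger repressor that keeps neuronal genes off in other cells by binding the RE1 element. The 2 probes of REST changed by -0.31 ± 0.34 and -0.21 ± 0.30, RCOR1, its corepressor, by -0.24, and SIN3A, a second corepressor, by -0.25, none past 1.5-fold. Promoter sequences from RefSeq (GRCh38.p14, windows from upstream of the start of each gene to just past it) were matched for 8 of the 12 most increased genes and were searched on both strands after the values of these genes had been seen. The letters TTCAGCACCNNNNNNNNGGACAG join the left and the right part of an RE1 element with 8 bases between them. They were in 3 of 35093 promoter windows (0.00855%), those of SCG3, UNC13A, and TPH2. Other spacings were not searched, so this share holds for the 8-base spacing alone and not for RE1 elements in general. The spacing was searched with the values of SCG3 and UNC13A known, so the match tests nothing. TPH2 was not measured here. The stretches are printed because they belong to the genes with the second and the third largest increase. The SCG3 stretch is at chr15:51681508-51681537 on the plus strand, from base 6 to base 35 of the transcript, and the UNC13A stretch at chr19:17688336-17688365 on the minus strand, from base -11 to base 19, each printed on the strand of its gene with the matched letters in capitals. UNC13A holds them on the opposite strand, so its capitals are the reverse complement.
SCG3: aacTTCAGCACCcacagggcGGACAGcgct
UNC13A: gcgCTGTCCgcgcccccGGTGCTGAAccaa

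The left part alone, TTCAGCACC, was in the windows of 128 genes (0.376% of the windows). Of these 43 were measured, 6 were higher (14%) and 1 was lower (2.33%), against 4.3% and 4.32% of all genes. The 6 include SCG3 and UNC13A, whose values had been seen before the search, so the count tests nothing. The others that were higher are SLC8A2, a sodium-calcium exchanger of neurons, at 1.27 ± 0.36, CELSR3, a cadherin of growing axons, at 0.95 ± 0.32, SYN1, the vesicle protein synapsin I, at 0.62 ± 0.32, and ARSL, a sulfatase, at 0.95 ± 0.70 and not well above background. The lower one is RAPGEF5, an exchange factor for small GTPases, at -0.76 ± 0.49. These letters are a description of the windows and do not show a bound site.

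CHGA and PCSK1 hold another well-known element of granule genes, the cAMP response element TGACGTCA, which is in 1.85% of all windows. Of the 9 granule genes with a window, 3 held it, the third being VGF, which was not measured here. Of all genes whose window holds it, 395 were measured, of which 10 were higher (2.53%) and 6 lower (1.52%), shares below the 4.3% and 4.32% of all genes. The 100 bases before the start are shown with the element in capitals. CHGA is at chr14:92923050-92923149 on the plus strand with the element from base -54 to -47, and PCSK1 is at chr5:96433249-96433348 on the minus strand with the element from base -77 to -70.
CHGA: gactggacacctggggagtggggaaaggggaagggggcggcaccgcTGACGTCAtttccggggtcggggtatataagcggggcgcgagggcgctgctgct
PCSK1: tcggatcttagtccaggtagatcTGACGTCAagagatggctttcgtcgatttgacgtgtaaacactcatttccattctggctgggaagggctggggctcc

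The most decreased transcripts, apart from MLLT10, were those for which the si-control Wnt3A array was high. By the same rule the 12 genes with the largest decreases were C1QTNF5, ACTL8, MLLT10, EGR1, CYP2W1, H1-9P, LGALS12, F11, CCDC88C, SLA, C4BPA, and PDZK1. The si-control Wnt3A array was the highest of 6 for 11 of them, all but MLLT10, and for 73.8% of all lower features. The genes were chosen by the fall from this array, so its rank partly follows from the choice and tests nothing. The MLLT10/AF10 array was the lowest for MLLT10 and CCDC88C and lay within the other 4 arrays for 8.

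C1QTNF5, a secreted protein of the C1q family, had a level of 2.75 in si-control and -0.09 in MLLT10/AF10-depleted cells, a change of -2.84 ± 0.39. The other 4 arrays read between -0.64 and -0.20, so the si-control Wnt3A array alone was high. ACTL8, an actin-like protein, had a level of 0.78 in si-control and -1.77 in MLLT10/AF10-depleted cells, with the others between -3.05 and -2.03. Against the mean of the DOT1L, BRG1, and p300 arrays, C1QTNF5 and ACTL8 changed by 0.35 and 0.57, opposite in sign to the change against si-control. CCDC88C, a protein that binds Dishevelled in the Wnt pathway, went from -0.09 to -1.43 on 1 probe, with the others between -1.40 and -1.26, and changed by -0.01 and 0.16 on its other 2 probes.

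The remaining decreased genes were dim. CYP2W1, a cytochrome P450, changed by -1.57 ± 0.38, and LGALS12, a galectin of fat cells, by -1.41 ± 0.38. F11, coagulation factor XI, changed by -1.39 ± 0.57, SLA, an adaptor of lymphocyte receptors, by -1.34 ± 0.57, C4BPA, a complement inhibitor, by -1.31 ± 0.55, and PDZK1, a scaffold of membrane transporters, by -1.31 ± 0.59. H1-9P, a pseudogene of a linker histone, changed by -1.44 ± 0.48. Their sample signals on the si-control array were between 73.0 for PDZK1 and 346 for CYP2W1, against a median of 775 over the features tested.

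Some transcripts were well above background on only 1 of the 2 arrays. Counting those with a fold bound above 1, there were 182 named probes in si-control cells alone and 54 in MLLT10/AF10-depleted cells alone. The named probes tested were 19159, and the MLLT10/AF10 array had the lower signal over background. For these a lower bound of the fold was computed from the sample channel after normalization of both channels. The floor was the dimmest signal well above background, or the probe's own signal on the dimmer array where that lay above it. In the latter case the value is an estimate and not a bound. The bound is open to dye bias because dyes were not exchanged. It is printed as a bound only where the fold from the ratios was not smaller. Among the lower genes IRAG2 was 4.004-fold lower, an estimate from its own signal on the MLLT10/AF10 array. ZNF43, a zinc finger protein, was at least 3.31-fold lower and C2CD2 at least 3.28-fold. With normexp and loess IRAG2, ZNF43, and C2CD2 changed by -0.97, -0.32, and -0.47. Among the higher genes PCSK1 is given above. For the other genes chosen for their bounds the fold from the ratios was smaller than the bound, so only the change is given. GLTPD2 changed by 2.00 ± 0.42, IGSF11, an adhesion protein, by 1.43 ± 0.42, COL3A1, a collagen, by 1.52 ± 0.46, RAB3B, a GTPase of secretory vesicles, by 0.97 ± 0.42, and CALB1, the calcium buffer calbindin, by 1.56 ± 0.48. With normexp and loess these 5 changed by 0.58, 0.31, 0.15, 0.10, and 0.12, none past 1.5-fold. GLTPD2 was low on the si-control Wnt3A array alone, at -2.81 against -0.81 in MLLT10/AF10-depleted cells and -1.24 to -0.79 on the others. DEFB1, an antimicrobial peptide, changed by -1.04 ± 0.49, LRRN3 by -1.63 ± 0.44, and ETV5, an ETS factor induced by ERK signaling, by -1.51 ± 0.40, and with normexp and loess by 0.35, -0.41, and -0.45.

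The immediate early genes, which growth factors switch on within minutes through ERK and serum response factor, were lower more often than higher. Of 37 genes 34 were measured, 10 were lower and 2 higher, and the median change over 48 probes was -0.18. EGR1, a zinc finger factor, had a level of -1.89 in si-control and -3.51 in MLLT10/AF10-depleted cells, a change of -1.63 ± 0.47. It read -4.63 in control medium, -2.17 after DOT1L, -3.97 after BRG1, and -3.13 after p300 depletion, so the MLLT10/AF10 array lay between the 2 si-control arrays. DUSP6, a phosphatase that shuts off ERK, changed by -1.12 ± 0.75, EGR2 by -0.88 ± 0.32, and PHLDA1 by -1.21 ± 0.83 on 1 of its probes, and by 0.63 on another, both not well above background, while its probes that were well above background changed by -0.16 and -0.11. The others lower were EGR3, DUSP5, FOSL1, SRF, FOSB, and NR4A1. JUN, a subunit of AP-1, was in the opposite direction, from 1.02 to 2.15, with the other arrays between 1.38 and 1.83, and KLF2 changed by 0.63 ± 0.29. Against the DOT1L array of the same slide, 5 immediate early genes were lower and 0 higher, against 1.77% and 2.3% of all genes. Against the mean of the DOT1L, BRG1, and p300 arrays, 1 was lower and 1 higher, and against the si-control array in control medium 0 were lower and 7 higher, against 4.11% and 5.06% of all genes. The counts of this list thus differed with the array compared. These arrays differ from si-control Wnt3A in siRNA pool or in medium. Against control medium the comparison also holds 9 h of Wnt3A.

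The promoter of EGR1 is shown because it holds a pair of CArG boxes, the elements bound by serum response factor. CArG boxes are in 1.29% of all windows. Of the 10 immediate early genes that were lower 7 had a window, and EGR1, EGR2, and SRF held a box. Of those that were not lower 17 had a window and 0 held a box. Bases farther upstream than the windows were not searched. Since the split was made by the calls, it describes them and tests nothing. Over all 187 measured genes with a box, 17 were lower (9.09%) and 10 higher (5.35%), against 4.32% and 4.3% of all genes. The stretch is chr5:138465329-138465478 on the plus strand, the 150 bases before the start, with the boxes in capitals from base -105 to -96 and from -83 to -74.
EGR1: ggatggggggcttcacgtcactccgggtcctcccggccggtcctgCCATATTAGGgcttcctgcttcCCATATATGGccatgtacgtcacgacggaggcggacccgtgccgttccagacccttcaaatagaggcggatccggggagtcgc

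Genes of the Wnt pathway moved little. Of 58 feedback and target genes 49 were measured, 2 were lower and 4 higher, with a median change of -0.04. AXIN2 had a level of 0.46 in si-control and 0.19 in MLLT10/AF10-depleted cells, a change of -0.27 ± 0.29, and read -0.62 in control medium, 0.24 after DOT1L, -0.34 after BRG1, and -0.16 after p300 depletion. The MLLT10/AF10 array was thus within its error of si-control and above the array in control medium. ZCCHC12, a zinc finger protein, went from 5.74 to 5.92 with 5.15 in control medium. MYC went from -0.88 to -0.68, and on its probe of 10 spots the si-control spots lay between -0.93 and -0.87 and the MLLT10/AF10 spots between -0.72 and -0.66. None of AXIN2, ZCCHC12, and MYC passed 1.5-fold. The lower members were SMOC2, a matrix protein of intestinal stem cells, at -1.25 ± 0.61, and SFRP2, a secreted Wnt inhibitor, at -0.78 ± 0.97 on 1 of its probes, both on probes not well above background. The SFRP2 probe that was well above background changed by -0.04. The higher ones were KREMEN1, a receptor for Dickkopf, at 0.96 ± 0.43 on 1 of 2 probes, CCND2, a G1 cyclin, at 0.73 ± 0.32 on 1 of its probes, SNAI2, a repressor of epithelial genes, at 0.64 ± 0.29, and ZNRF3, a ligase that removes Frizzled receptors, at 0.59 ± 0.32 on 1 of 2 probes.

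Of 51 genes of the pathway's machinery 47 were measured, 3 were lower and 0 higher. BCL9L, a β-catenin coactivator, changed by -0.61 ± 0.33, TBL1XR1, a subunit of corepressor complexes, by -0.59 ± 0.31 on 1 of its probes, and TLE4, a Groucho corepressor, by -0.59 ± 0.46 on 1 of 2. Against the DOT1L array of the same slide, 6 target genes were lower and 0 higher (ASCL2, CCND1, CD44, ISL1, SFRP2, and SMOC2), against 1.77% and 2.3% of all genes, and 0 machinery genes passed 1.5-fold in either direction. Against the mean of the DOT1L, BRG1, and p300 arrays 1 of 49 target genes was lower and 5 were higher. The shares of all genes were 1.88% and 4.05%, so the counts of target genes too differed with the arrays compared. Against the si-control array in control medium, 13 of 49 target genes were higher and 3 lower, against 5.06% and 4.11% of all genes. AXIN2, DKK1, SP5, and TNFRSF19 were among the higher ones. This comparison also holds 9 h of Wnt3A.

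Most transcripts of the genes for DOT1L and its elongation partners stayed within 1.5-fold of si-control. Of 35 genes for DOT1L and elongation partners 33 were measured, 2 were lower and 2 higher, and MLLT10 was the largest. HEXIM1, an inhibitor of the elongation kinase P-TEFb, changed by -0.67 ± 0.33 on 1 probe and -0.04 on the other. SUPT16H, a subunit of the histone chaperone FACT, changed by 0.87 ± 0.33 on 1 probe and -0.26 on the other, and KMT2A, the methyltransferase MLL, by 0.62 ± 0.30. Among 44 measured chromatin writers and remodelers 6 were higher and 0 lower, led by KMT2C at 0.78 ± 0.30, SETD2 at 0.76 ± 0.30, TET2 at 0.69 ± 0.32, and KAT6B at 0.68 ± 0.31, which are large transcripts each read by probes that disagreed, the lowest at -0.02, -0.09, -0.14, and -0.18. Against the DOT1L array of the same slide 0 of these were past 1.5-fold, where a change common to both depletions cannot be seen.

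Of 36 measured HOX, MEIS, and PBX genes, some of which depend on MLLT10 fusions in leukemia, 2 were lower and 2 higher. HOXD11 went from 4.29 to 3.19 and HOXA11 from 4.22 to 3.51, while the sample channel alone changed by 0.10 and -0.04. HOXD9 and HOXB7 changed by 0.60 each, with 0.07 and -0.43 in the sample channel alone. For the 4 genes the change was therefore not seen in the channel that holds the sample.

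Growth and basal functions were nearly level. Of 52 measured genes of DNA replication, 40 of mitosis, 28 of cholesterol synthesis, 18 heat shock proteins, and 16 housekeeping genes, 0 were lower and 0 higher than 1.5-fold. POLD3, a subunit of DNA polymerase δ, was the farthest of the replication genes at 0.52 ± 0.31, and CDC25A, the phosphatase that activates cyclin-dependent kinases, of the mitosis genes at 0.39 ± 0.48. MSMO1, a sterol oxidase, was the farthest in cholesterol synthesis at -0.54 ± 0.29, HSP90AA1, a chaperone, among heat shock proteins at 0.52 ± 0.31, and POLR2A, the largest subunit of RNA polymerase II, among housekeeping genes at 0.45 ± 0.32. In ribosome biogenesis POLR1A, a subunit of RNA polymerase I, was the 1 gene of 36 that passed, at 0.60 ± 0.32. BBC3, which encodes the cell death protein PUMA, was the 1 of 27 p53 targets, at 0.72 ± 0.31 with -0.09 in the sample channel alone, and DNAJC3, a chaperone of the endoplasmic reticulum, the 1 of 29 genes of amino acid and unfolded protein stress, at 0.84 ± 0.29.

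Of 36 measured histone genes 5 were higher and 2 lower. H1-3, a linker histone, had a level of -1.36 in si-control and 0.18 in MLLT10/AF10-depleted cells, a change of 1.54 ± 0.31, with the others between -0.77 and -0.07. H4C3, H4C2, and H1-4 changed by 0.89, 0.86, and 0.81, and H4C1 and H2BC21 by -1.26 and -0.64 on probes not well above background. The H2BC21 probes that were well above background changed by -0.25 and 0.05. H1-3 changed by 0.54 and H4C3 by -0.21 in the sample channel alone. Near-identical copies of core histone genes can share a probe, so these values may belong to several copies. Against the DOT1L array of the same slide 0 of 35 histone genes passed 1.5-fold. Against the mean of the DOT1L, BRG1, and p300 arrays 4 were lower (H1-2, H2BC12, H2BC21, and H2BC9) and 0 higher. Changes common to these depletions cannot be seen in either comparison.

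Among 34 measured interferon-stimulated genes 3 were lower and 1 higher. XAF1, which promotes cell death, changed by -1.06 ± 0.46 on 1 probe. MX2, an antiviral GTPase, at -1.78 ± 0.48, CCL5, a chemokine, at -1.24 ± 0.65, and IFIT3, an antiviral protein, at 2.63 ± 0.58 were on probes not well above background on both arrays. A second MX2 probe, which was well above background, changed by -0.49. IFIT3 read -4.05 on the si-control Wnt3A array and between -2.39 and -1.43 on all others. Of 31 genes of hypoxia and glycolysis 2 were lower. PFKFB3, a regulator of glycolysis, was at -1.11 ± 0.36 on 1 of 4 probes. SLC2A3, a glucose transporter, was at -0.87 ± 0.50 on a probe not well above background. Its second probe, which was well above background, changed by 0.25. Of 24 targets of BMP and TGF-β 3 were lower, among them LEFTY2 at -1.15 and TGFB1 at -0.66, and 2 were higher. The higher ones were SKI, a repressor of SMAD factors, at 1.08 ± 0.34 on 1 of its probes and LEFTY1 at 0.64 ± 0.54. LEFTY1 and LEFTY2 were on probes not well above background. Of 21 Notch pathway genes 2 were higher, HES5 as given above and HES7 at 0.60 ± 0.31.

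Of the markers of other cell types, 5 of 9 measured fibroblast, 6 of 8 immune, and 5 of 5 intestinal genes had a probe well above background, and CDX2, an intestinal homeobox factor, was at a level of 4.34 in si-control cells. In the kidney list SLC12A3, CDH16, and PAX8 were lower at -1.99, -1.40, and -0.73, SLC12A3 by the most changed of its 3 probes. These probes of SLC12A3 and CDH16 were not well above background. The other SLC12A3 probes, which were well above it, changed by -0.71 and 0.06. TFF3, a trefoil peptide, was 1 of 5 measured intestinal markers and changed by -0.89 ± 0.54. POSTN and COL3A1, matrix proteins of fibroblasts, were higher at 1.77 and 1.52 and not well above background. PTPRC, the leukocyte antigen CD45, changed by -0.91 and CD3D by 0.61, with program errors of 0.64 and 0.84. PTPRC was not well above background. The summed sample signal of the si-control and the MLLT10/AF10 array was 2945.23 and 3165.34 for the fibroblast, 4551.11 and 4865.6 for the immune, 2027.7 and 1508.94 for the intestinal, and 13234 and 11637.9 for the kidney list.

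**Figure D4:**
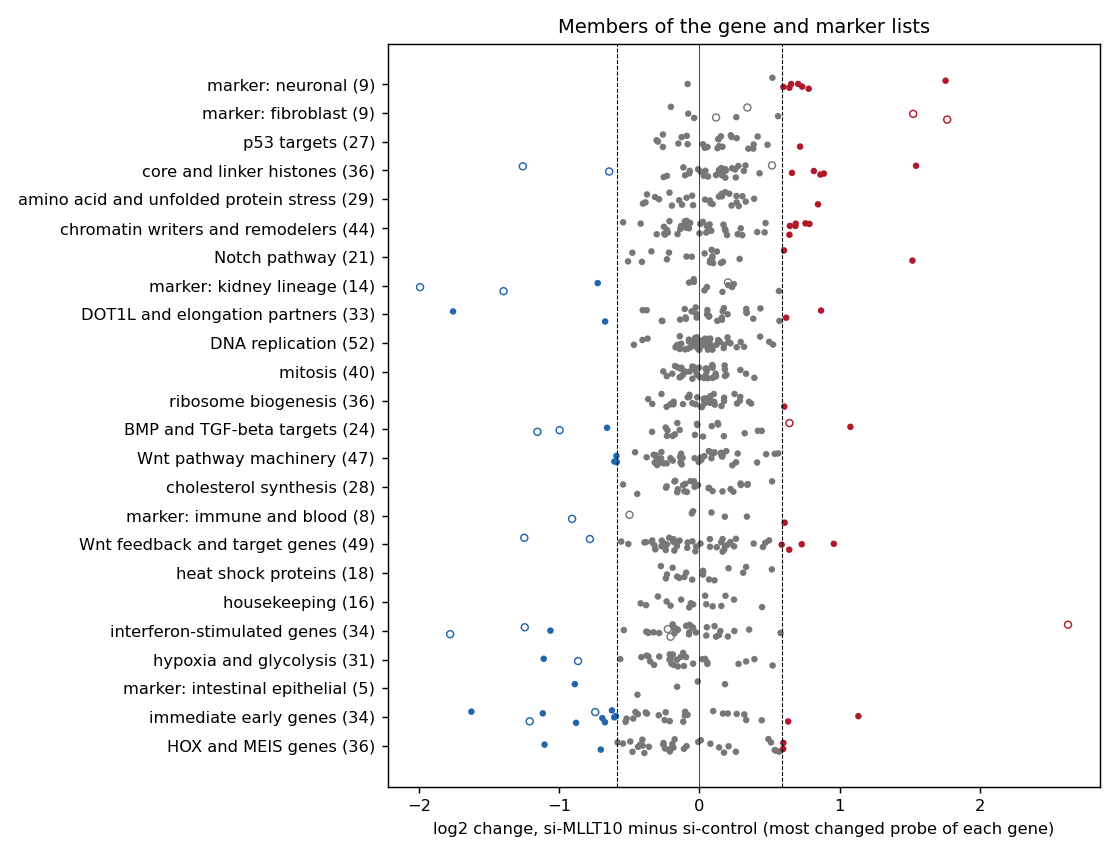
Change of each measured member of the gene and marker lists (log2, MLLT10/AF10-depleted minus si-control, most changed probe), ordered by the median of the list, with the number measured in parentheses. Dashed lines mark 1.5-fold, open symbols are genes not well above background on both arrays, and the neuronal markers lie on the right while the immediate early genes spread to the left.

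In Ls174T cells, where the Wnt pathway is constitutively on, depletion of MLLT10/AF10 was measured on arrays that this comparison does not share. Of 27369 features tested there 651 were more than 1.5-fold lower (2.38%) and 587 higher (2.14%). Of the features lower in HEK293T cells 1039 were measured in Ls174T cells, where 109 were lower (10.49%) and 106 higher (10.2%) with a median change of 0.00. Of the features higher in HEK293T cells 758 were measured, where 46 were lower (6.07%) and 38 higher (5.01%) with a median of -0.01. Over all 26512 features measured in both lines these shares were 2.37% and 2.07%. Both sets thus held more features past 1.5-fold than all features, in both directions, and were centered on 0. CHGB changed by -1.11 and SCG3 by -1.38 in Ls174T cells, neither well above background on both arrays, and CHGA changed by -0.01. UNC13A changed by -0.18, ITGA3 by -0.06, and EGR1 by 0.20. Among probes well above background on all 4 arrays, 10 were lower and 8 higher in both lines. In opposite directions, 8 were higher in HEK293T and lower in Ls174T cells, and 5 the reverse. The named genes lower in both lines were MLLT10, CDK6, a kinase of the G1 phase, FXYD2, a subunit of the sodium pump, and PDLIM5, a cytoskeletal protein. Those higher in both were CCSAP, KIAA0319L, MAOB, MCAT, and PKD2. Those higher in HEK293T and lower in Ls174T cells were APH1A, CBX1, and SMG1, and the reverse held for DUSP6, MACROD2, MYO1A, and PLB1.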

How the data were processed

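RNA was labeled and hybridized by the authors to Agilent 4x44K arrays, and read with the Feature Extraction program (version 10.5.1.1 in the file headers, 8.5.1.1 in the submitters' processing notes). The deposited log10 ratios are processed Cy5 over Cy3 signal, dye-normalized within each array. The deposited ratio error, a score on the log10 scale, comes from the program's error model. The intensities that the authors deposited are median, local background, and processed signals per channel. The deposited value table differed from the scanner files by 0.

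Ratios were turned to sample over reference and converted to log2. Control spots and outlier features (161 and 103) were left out. Genes were named through RefSeq accessions (27612 of 29084 such features, 94.9%). The members and lists were chosen with earlier results of these data known. Named are all probes of the siRNA targets, the 12 largest changes per direction among single-symbol probes well above background on both arrays and past 1.5-fold in the sample channel, the 6 largest bounds per direction, up to 4 members per list and direction, and AXIN2, ZCCHC12, and MYC. Granule and REST genes, and those with RE1 letters, were added after their values were seen. Alternatives included limma 3.58.1 (R 4.3.3) normexp with an offset of 50 and loess, and the sample channel scaled to its 75th percentile. Values of a few genes that the rule names are not reported here. Steps were tested on simulated data. Arrays, 1 per condition, limit precision, and replicate cultures were not analysed here.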

Additional observations from a re-analysis of the deposited data

Results flagged for a closer look

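DUSP6, the ERK phosphatase, was well above background on the 4 MLLT10/AF10 and si-control arrays of both lines and changed by -1.12 ± 0.75 in HEK293T cells and by 0.63 in Ls174T cells. It stands here because the single arrays of the lines moved in opposite directions past 1.5-fold. DUSP6 was not alone in this, since 5 probes well above background were lower in HEK293T and higher in Ls174T cells, and 8 the reverse. The difference for DUSP6 was not tested.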

How the results depend on the processing

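The change of MLLT10 kept its direction and stayed past 1.5-fold under all alternatives, between -1.75 and -2.07. The counts of lower and higher features did not. They were 166 and 296 after normexp and loess, 169 and 301 when outlying local backgrounds were also set to the array median, 190 and 496 with both channels above 2 times background, 4340 and 3356 with no filter on signal, and 493 and 213 at 2-fold. In the sample channel alone 3825 were lower, and with the mean of the DOT1L, BRG1, and p300 arrays as control 464 were lower. With the DOT1L array alone as control 478 were lower and 559 higher. The share of calls that were lower was 54.5% as reported, 35.9% after normexp and loess, and 78.2% in the sample channel alone. Several genes past 1.5-fold changed sign, and the cause was not tested. With the mean of the 3 depletion arrays as control the changes were ACTL8 0.57, BCL9L 0.17, C1QTNF5 0.35, C2CD2 0.40, C4BPA 0.56, CDH16 1.00, CYP2W1 0.15, DEFB1 0.0759, F11 0.53, H1-9P 0.54, HOXD11 0.18, IRAG2 0.16, LEFTY1 -0.53, LEFTY2 0.18, LRRN3 0.23, PAX8 0.24, PDZK1 0.72, PTPRC 0.60, SLA 0.40, SLC12A3 0.31, TET2 -0.13, TFF3 0.34, TGFB1 0.14, and XAF1 0.41. After normexp and loess they were DEFB1 0.35, HOXA11 0.0293, PHLDA1 0.14, and SMOC2 0.0847, with the backgrounds set DEFB1 0.34, HOXA11 0.0380, LEFTY1 -0.0228, PHLDA1 0.13, and SMOC2 0.0810, and in the sample channel alone BBC3 -0.0907, H4C3 -0.21, HOXB7 -0.43, and HOXD11 0.10. AXIN2, which was within 1.5-fold, went from -0.27 to 0.28 with the mean of the 3 depletion arrays and to 0.09 in the sample channel alone. CHGB, SCG3, UNC13A, and CHGA kept their direction, at 2.14, 2.53, 1.85, and 1.46 after normexp and loess, where HPN, SOAT2, and PCSK1 were at 0.71, 0.70, and 0.73. The controls on the slide of the MLLT10/AF10 array were chosen after seeing the data. Low signal over background limits the lower calls, and 1 array per condition leaves the spread between cultures unmeasured.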
